A study of Mus musculus with 12 samples.

Results

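The cornified envelope genes are the structural genes whose products are linked into the protein shell of the dead outer skin cell. They were taken as every protein-coding gene of the deposited table whose mouse symbol starts with Sprr or Lce followed by a digit, together with Lor, Ivl, Flg, Flg2, Hrnr, Rptn and Cnfn. This rule found 44 of the 55401 genes in the table: 16 Sprr genes, 21 Lce genes (14 of them Lce1, 6 Lce3 and 1 Lce6) and the 7 single genes. Of these, 43 lie on chromosome 3 between positions 92080271 and 93399442 of the GRCm38 assembly, a stretch of 1.32 Mb known as the epidermal differentiation complex, and Cnfn lies on chromosome 7. A mean of at least 1 FPKM (a fragment count corrected for gene length and sequencing depth) over all 12 libraries was required for testing, and 43 of the 44 passed. Sprr3 did not pass, with at most 0.311 FPKM in any library.

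Dermis, the layer of connective tissue under the epidermis, was taken for RNA sequencing from C57BL/6 mice aged 6 weeks in a study with paired wounds of equal size. The 4 groups were wild-type (WT) on day 0, Cthrc1-/- on day 0, WT on day 7 and Cthrc1-/- on day 7, each with 3 samples that the submitters call biological replicates, and the labels tie no sample to an animal. Cthrc1-/- mice lack Cthrc1, which encodes a secreted protein with collagen-like repeats, and the labels name no other allele, agent or cell-type-specific driver. Comparing genotypes on each day, days in each genotype, and the day change between genotypes were the questions the design allows.

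In the outer epidermis, keratinocytes stop dividing, move upwards and replace their plasma membrane with the cornified envelope, a sheet of proteins cross-linked by transglutaminases and coated with lipid. Involucrin (Ivl) forms the early scaffold, loricrin (Lor) is the bulk component, the small proline-rich (Sprr) proteins act as cross-bridges, and the late cornified envelope (Lce) proteins join at the end. Filaggrin (Flg) and its relatives Flg2, hornerin (Hrnr) and repetin (Rptn) bundle keratin filaments or join the envelope, and cornifelin (Cnfn) is a further envelope component. Sprr genes and members of the Lce3 group are known to be induced when the epidermis is injured or inflamed, and the envelope is made by keratinocytes and not by dermal fibroblasts.

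The libraries held 48329668 to 76938132 counts. Cthrc1 was at 26.99, 21.8 and 21.1 FPKM in WT on day 0 and 106, 95.5 and 73.996 in WT on day 7, and at no more than 0.151 FPKM in every Cthrc1-/- library, as the labels say. The tissue is labelled dermis, yet the basal keratinocyte keratins Krt5 and Krt14 stood between 907 and 3826 FPKM in all 12 libraries, so every library held epidermal or follicle keratinocyte RNA. In a bulk sample, fewer cells of a type and less RNA per cell cannot be told apart. Marker lists of other cell types differed between the libraries. The summed FPKM of the hair follicle list (12 of 13 genes found) was 16.5 to 19.5 in WT on day 0, with 6 of the 12 under 1 FPKM in each of those libraries, 251, 5216 and 12777 in the Cthrc1-/- day 0 replicates 1 to 3, 1694 to 4079 in WT on day 7 and 516 to 5537 in Cthrc1-/- on day 7. The suprabasal keratinocyte list (8 of 8 found) summed to 3229, 3699 and 3713, 2435, 2048 and 784, 513, 2425 and 4868 and 3785, 3386 and 2223 in the same order of groups. The fibroblast list (6 of 6 found) summed to 4814 to 6441 in WT on day 0 and to 2386, 1296 and 337 in Cthrc1-/- on day 0. WT day 7 replicate 1 and Cthrc1-/- day 0 replicate 3 stood apart, the first with the lowest basal and suprabasal sums of all 12 libraries and the highest leukocyte sum (256, against at most 98.6 elsewhere), the second with the highest hair follicle sum and the lowest fibroblast sum.

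The promoters of the Sprr genes are shown here because most of the genes called in a comparison are Sprr genes, and those of Lor, Ivl and Cnfn for comparison. Each is the 250 bases before the RefSeq start on GRCm38.p6, written 5′ to 3′ on the strand of the gene, with matches in capitals to the AP-1 motif TGANTCA or the TATA box TATAAA on either strand. The windows are chr3:92485882-92486131 and chr3:92438780-92439029 on the minus strand, chr3:92338890-92339139, chr3:92364937-92365186 and chr3:92385435-92385684 on the plus strand, and chr3:92573736-92573985, chr3:92083143-92083392 and chr7:25369725-25369974 on the minus strand.
Sprr1a: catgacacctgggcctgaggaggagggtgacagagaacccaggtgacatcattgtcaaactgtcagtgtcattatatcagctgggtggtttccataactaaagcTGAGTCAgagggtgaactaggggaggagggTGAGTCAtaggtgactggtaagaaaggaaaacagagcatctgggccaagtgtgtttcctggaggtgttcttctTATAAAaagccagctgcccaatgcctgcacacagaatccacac
Sprr1b: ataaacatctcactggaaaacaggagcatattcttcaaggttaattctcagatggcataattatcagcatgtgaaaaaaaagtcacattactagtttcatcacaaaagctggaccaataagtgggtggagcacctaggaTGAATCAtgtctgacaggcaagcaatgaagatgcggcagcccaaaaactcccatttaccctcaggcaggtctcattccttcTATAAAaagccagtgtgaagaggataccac
Sprr2d: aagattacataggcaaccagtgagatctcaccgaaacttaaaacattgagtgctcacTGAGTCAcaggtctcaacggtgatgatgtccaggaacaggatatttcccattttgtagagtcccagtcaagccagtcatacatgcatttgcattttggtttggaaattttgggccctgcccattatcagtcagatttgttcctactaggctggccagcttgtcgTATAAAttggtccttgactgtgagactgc
Sprr2f: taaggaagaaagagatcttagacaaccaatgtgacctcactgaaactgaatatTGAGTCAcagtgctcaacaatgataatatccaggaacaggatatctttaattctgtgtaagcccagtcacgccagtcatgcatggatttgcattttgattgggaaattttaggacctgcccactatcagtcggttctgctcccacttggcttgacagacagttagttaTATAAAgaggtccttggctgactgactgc
Sprr2h: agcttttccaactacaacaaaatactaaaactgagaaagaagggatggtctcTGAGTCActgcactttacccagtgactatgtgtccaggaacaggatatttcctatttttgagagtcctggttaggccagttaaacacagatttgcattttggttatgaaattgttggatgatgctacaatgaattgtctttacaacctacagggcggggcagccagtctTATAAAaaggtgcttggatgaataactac
Ivl: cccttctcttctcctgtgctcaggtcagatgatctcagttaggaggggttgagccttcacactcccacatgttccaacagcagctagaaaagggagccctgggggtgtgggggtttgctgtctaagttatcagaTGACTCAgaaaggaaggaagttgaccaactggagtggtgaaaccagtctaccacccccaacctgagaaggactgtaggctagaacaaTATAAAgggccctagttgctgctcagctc
Lor: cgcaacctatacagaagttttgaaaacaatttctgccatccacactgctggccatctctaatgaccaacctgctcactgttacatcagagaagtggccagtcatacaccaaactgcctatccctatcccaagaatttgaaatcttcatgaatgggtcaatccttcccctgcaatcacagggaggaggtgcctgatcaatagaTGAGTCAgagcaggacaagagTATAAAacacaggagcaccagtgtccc
Cnfn: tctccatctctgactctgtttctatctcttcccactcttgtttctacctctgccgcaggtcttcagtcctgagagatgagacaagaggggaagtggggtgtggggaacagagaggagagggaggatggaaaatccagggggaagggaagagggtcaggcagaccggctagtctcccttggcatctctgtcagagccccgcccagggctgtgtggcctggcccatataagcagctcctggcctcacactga

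RefSeq held a promoter for 41 of the 44 genes. AP-1 is the dimer of Jun and Fos proteins, and its motif TGANTCA, searched on both strands, was in 14 of the 41 windows (34.1%) against 6.75% of 32851 mouse promoter windows of the same length. TATAAA was in 19 of 41 (46.3%) against 12.4%. The motif AACNGGTT of the grainyhead-like factors was in 1 of 41 (2.44%) against 1.79%, and the KLF motif CACCC was in 17 of 41 (41.5%) against 52.0%. The AP-1 match was in both Sprr1 windows, in 7 of 10 Sprr2 windows and in 5 of the 7 single genes (Lor, Ivl, Flg, Flg2 and Rptn), and in 0 of 13 Lce1 and 0 of 6 Lce3 windows. In Sprr2b, Sprr2d, Sprr2e, Sprr2f, Sprr2h, Sprr2i and Sprr2k the first base of TATAAA stood at -29 from the start, and an AP-1 match between -198 and -193. Lor had its AP-1 match at -48, Ivl at -116 and Sprr1b at -111, while Sprr1a had a pair at -146 and -116. The windows of Sprr2a1 and Sprr2a2 were identical, without a match to either motif, and that of Cnfn had none. A match is a description of the letters and does not show that a factor binds there. The AP-1 motif was present in genes that differed greatly between the groups (Sprr1b, Sprr2h) and in genes that did not pass the test anywhere (Lor, Ivl), and absent from Cnfn and Lce3d, which did.

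Summed over the 44 genes, the level was 432, 415 and 568 FPKM in the WT day 0 libraries, 1891, 2512 and 1684 in Cthrc1-/- on day 0, 622, 1703 and 1495 in WT on day 7 and 3409, 2157 and 2039 in Cthrc1-/- on day 7. WT on day 0 had the lowest group mean for 38 of the 43 tested genes, and Cthrc1-/- on day 7 had the highest for 38. The map of all genes by library shows the WT day 0 columns dark across the Sprr2 and Lce3 rows, and Lor, Ivl and Lce1m without that step.

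**Figure D1:**
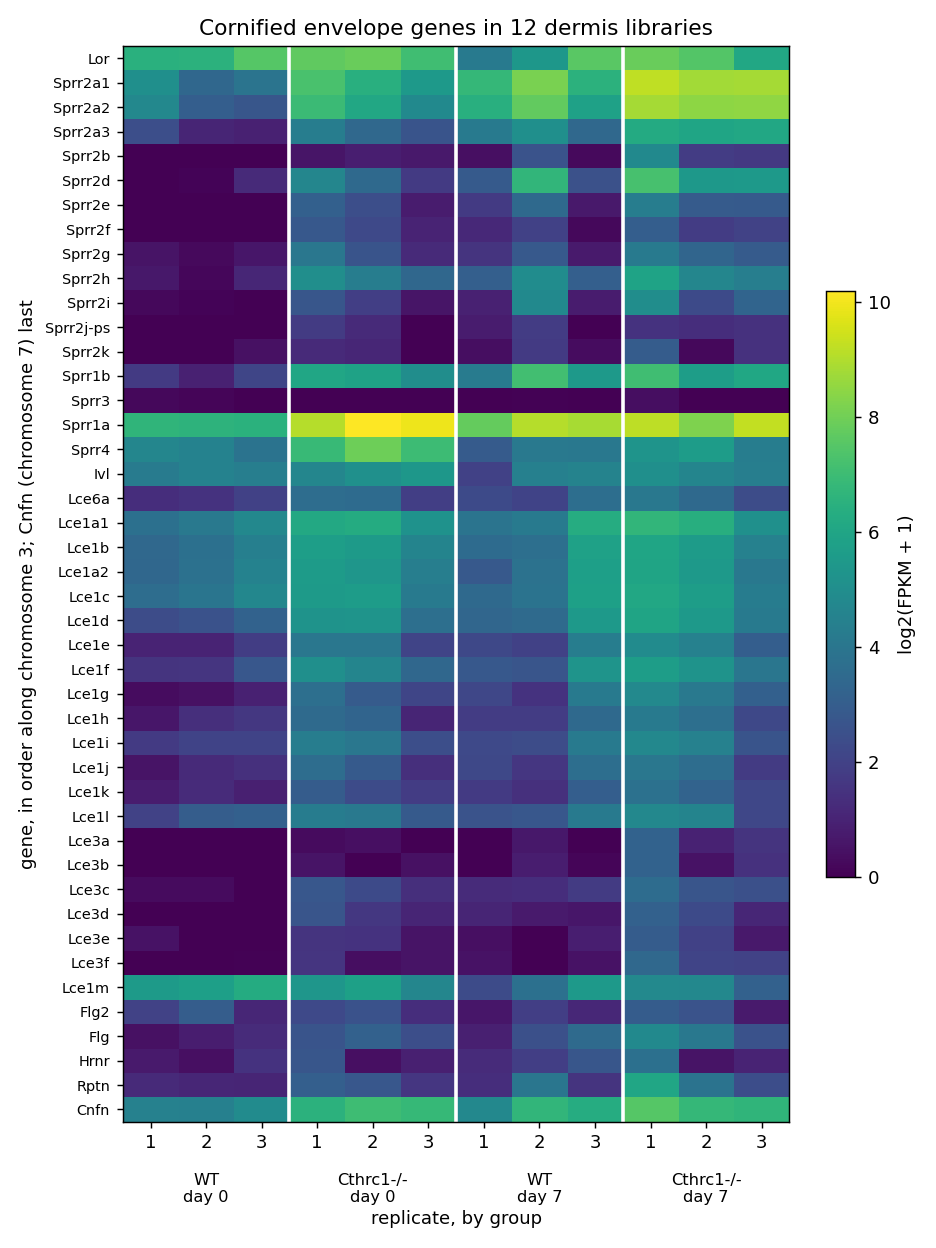
Level of each of the 44 genes (rows, in order along chromosome 3, with Cnfn of chromosome 7 last) in the 12 libraries (columns, replicates 1 to 3 of each group), as log2(FPKM + 1) by colour. Sprr1a is the brightest row in most libraries, the Sprr2 and Lce3 rows are darkest in WT on day 0, and Sprr3 is dark throughout.

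The cross-bridging Sprr1 genes differed most clearly between WT on day 0 and the other 3 groups. Sprr1a (chr3:92483952-92485895) had the highest mean level of all 44 genes and stood at 102, 94.5 and 88.8 FPKM in WT on day 0, 531, 1166 and 966 in Cthrc1-/- on day 0, 221, 532 and 466 in WT on day 7 and 581, 301 and 603 in Cthrc1-/- on day 7. The WT day 0 libraries lay close together, and every other library was above them. On day 0, Sprr1a was higher in Cthrc1-/- than in WT by 3.11 ± 0.38 on the log2 scale (here and below ± SE, n = 3 in each group, edgeR adjusted p = 0.00941), and between the days it rose in WT by 1.88 ± 0.36 (edgeR adjusted p = 0.0122). These comparisons share the WT day 0 libraries, so each is given on its own here and below. Its day change in Cthrc1-/- was -0.99 ± 0.35 (edgeR adjusted p = 0.173), with Cthrc1-/- day 0 replicate 1 inside the range of day 7.

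Sprr1b (chr3:92436809-92438789) was at 2.33, 0.927 and 3.42 FPKM in WT on day 0, 64.9, 57.04 and 30.96 in Cthrc1-/- on day 0, 17.6, 136 and 44.3 in WT on day 7 and 134, 50.2 and 65.8 in Cthrc1-/- on day 7. Every WT day 0 library was below every other library, and in each day 7 group 1 library was far above the other two. Between genotypes on day 0 it differed by 4.43 ± 0.81 (edgeR adjusted p = 0.0245), and between days in WT by 4.67 ± 0.82 (edgeR adjusted p = 0.00856). Of the 14 genes called between days in WT, it alone kept its call in all 6 fits that left out a library and under all 9 other settings, with an edgeR adjusted p of at most 0.0394 without a library.

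The Sprr2 genes, which lie side by side between Lor and Sprr1b, fall into 3 highly expressed Sprr2a copies and 9 others. Sprr2a1 (chr3:92215799-92221911) was at 32.6, 9.53 and 14.1 FPKM in WT on day 0, 152, 85.3 and 45.003 in Cthrc1-/- on day 0, 109.8, 280.1 and 92.98 in WT on day 7 and 599, 439.9 and 448 in Cthrc1-/- on day 7. Sprr2a2 was at 25.9, 7.26 and 5.69 FPKM in WT on day 0, 123, 68.4 and 27.8 in Cthrc1-/- on day 0, 86.1, 214 and 56.3 in WT on day 7 and 452, 347 and 361 in Cthrc1-/- on day 7. Sprr2a3 was at 4.48, 1.1004 and 0.922 FPKM in WT on day 0, 18.9, 9.88 and 5.2004 in Cthrc1-/- on day 0, 16.9, 32.8 and 10.0001 in WT on day 7 and 74.2, 62.5 and 67.2 in Cthrc1-/- on day 7. All 3 were lowest in WT on day 0 and highest in Cthrc1-/- on day 7, with no overlap between neighbouring groups except Cthrc1-/- on day 0 with WT on day 7. Their transcripts share most of their sequence: of the 100-base stretches of Sprr2a1, 92.5% were also in another gene's transcript, of Sprr2a2 92.8% and of Sprr2a3 36.2%, so the split of counts among the 3 is uncertain and they are best read as 1 signal. Between days in WT the log2 change was 2.91 ± 0.63 for Sprr2a1 (edgeR adjusted p = 0.0176), 3.02 ± 0.76 for Sprr2a2 (0.0301) and 3.02 ± 0.72 for Sprr2a3 (0.0253). Between genotypes on day 0 the values were 2.25, 2.43 and 2.32, and none of the 3 passed (edgeR adjusted p = 0.0567, 0.0754 and 0.0749). The day change in Cthrc1-/- was 2.21, 2.22 and 2.40, again without passing (edgeR adjusted p = 0.094, 0.147 and 0.109), although every Cthrc1-/- day 7 library was above every Cthrc1-/- day 0 library for each of them. The DESeq2 test passed all 3 in this comparison, and so did limma on log2(FPKM + 1).

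The other Sprr2 genes were near or at 0 in WT on day 0. Sprr2d was at 0, 0.065 and 1.33 FPKM in WT on day 0, 24.4, 10.3 and 2.32 in Cthrc1-/- on day 0, 6.38, 103 and 4.74 in WT on day 7 and 151, 41.8 and 44.8 in Cthrc1-/- on day 7. Sprr2h was at 0.581, 0.146 and 1.14 FPKM in WT on day 0, 31.6, 18.7 and 9.72 in Cthrc1-/- on day 0, 7.59, 29.7 and 7.47 in WT on day 7 and 59.05, 24.8 and 19.3 in Cthrc1-/- on day 7. For both, WT day 7 replicate 2 and Cthrc1-/- day 7 replicate 1 were the highest libraries of their groups. Sprr2h was higher in Cthrc1-/- on day 0 by 4.92 ± 0.92 (edgeR adjusted p = 0.0276) and rose between days in WT by 4.37 ± 0.90 (0.0153). Sprr2d rose between days in WT by 6.18 ± 1.79 (edgeR adjusted p = 0.0478), with 103 FPKM in replicate 2 against 6.38 and 4.74 in the other two, and its genotype difference on day 0 was 4.72 ± 1.69 (0.107).

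Sprr2e and Sprr2f had no count in any WT day 0 library. Sprr2e was at 7.67, 4.48 and 0.731 FPKM in Cthrc1-/- on day 0, 2.31, 10.3 and 0.62 in WT on day 7 and 18.9, 6.62 and 6.35 in Cthrc1-/- on day 7. Against a floor of 3 counts in each WT day 0 library, it was at least 58.9-fold higher in Cthrc1-/- on day 0 (edgeR adjusted p = 0.0371) and at least 60.6-fold higher in WT on day 7 (0.0195). Sprr2f was at 5.96, 3.803 and 1.04 FPKM in Cthrc1-/- on day 0, 1.23, 2.92 and 0.153 in WT on day 7 and 7.17, 2.52 and 3.05 in Cthrc1-/- on day 7. By the same floor it was at least 46.5-fold higher in Cthrc1-/- on day 0 (edgeR adjusted p = 0.0317) and at least 18.6-fold higher in WT on day 7 (0.0228). In both genes Cthrc1-/- day 0 replicate 3 was the lowest of its group and WT day 7 replicate 3 the lowest of its own. The rises in WT rest largely on replicate 2 of day 7: without it the bounds were 20.4-fold for Sprr2e, which was still called (edgeR adjusted p = 0.0398), and 9.06-fold for Sprr2f, which was not (0.0522). Without Cthrc1-/- day 0 replicate 1 the day 0 bound of Sprr2e was 35.8-fold, with the call kept. Neither gene was called in either comparison when any 1 WT day 0 library was left out.

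Sprr2g was at 0.443, 0.203 and 0.532 FPKM in WT on day 0, 15.5, 5.28 and 1.35 in Cthrc1-/- on day 0, 1.88, 6.28 and 0.668 in WT on day 7 and 16.7, 9.04 and 6.55 in Cthrc1-/- on day 7. It was higher in Cthrc1-/- on day 0 by 4.16 ± 1.05 (edgeR adjusted p = 0.0487), the highest adjusted p among the calls on day 0, and by 2.97 without Cthrc1-/- day 0 replicate 1, where it was not called (edgeR adjusted p = 0.0608). Sprr2i was at 0.174, 0.071 and 0 FPKM in WT on day 0, 5.68, 2.73 and 0.473 in Cthrc1-/- on day 0, 0.914, 27.6 and 0.727 in WT on day 7 and 30.7, 3.85 and 8.605 in Cthrc1-/- on day 7. Its rise between days in WT, by 6.49 ± 1.86 (edgeR adjusted p = 0.0461), came with 27.6 FPKM in replicate 2 and under 1 FPKM in replicates 1 and 3. Sprr2b was at 0 counts in WT on day 0, at 0.5 to 0.832 FPKM in Cthrc1-/- on day 0, at 0.341, 5.15 and 0.205 in WT on day 7 and at 27.2, 2.53 and 2.24 in Cthrc1-/- on day 7. It was at least 31.8-fold higher in WT on day 7 than on day 0 (edgeR adjusted p = 0.0454), with 309 of its 340 WT day 7 counts in replicate 2. Without that library the bound was 4.74-fold and the call was lost (edgeR adjusted p = 0.0901), and the call held in 1 of 6 fits without a library and under 1 of 8 other settings. Sprr2j-ps and Sprr2k stayed at or under 6.84 FPKM in every library and passed no test.

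Sprr4 (chr3:92500263-92500493), a lone Sprr gene between Sprr1a and Ivl whose gene model spans only 231 bases, was highest in Cthrc1-/- on day 0. It stood at 24.8, 22.2 and 13.7 FPKM in WT on day 0, 115, 246 and 126 in Cthrc1-/- on day 0, 6.56, 16.3 and 16.1 in WT on day 7 and 37.5, 48.6 and 19.1 in Cthrc1-/- on day 7. All Cthrc1-/- day 0 libraries were above every library of the other 3 groups, and Cthrc1-/- on day 7 was above WT on day 7 in every library. It was higher in Cthrc1-/- on day 0 by 2.91 ± 0.48 (edgeR adjusted p = 0.0202). Between days in Cthrc1-/- it fell by 2.37 ± 0.47 on the log2 scale (edgeR adjusted p = 0.044), the only call among the 43 genes in that comparison, and its WT change was -0.86 ± 0.45 (0.218). The fall in Cthrc1-/- kept its call without Cthrc1-/- day 0 replicate 3 and lost it without any of the other 5 libraries, with edgeR adjusted p from 0.0299 to 0.141 over the 6 fits.

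Cnfn (chr7:25367620-25369724), the member outside chromosome 3, was at 21.3, 20.9 and 29.1 FPKM in WT on day 0, 91.8, 128 and 113 in Cthrc1-/- on day 0, 26.3, 103 and 78.9 in WT on day 7 and 180.0, 108 and 102 in Cthrc1-/- on day 7. WT on day 0 and Cthrc1-/- on day 0 did not overlap, and WT day 7 replicate 1 was within the WT day 0 range. The day 0 genotype difference was 2.11 ± 0.41 (edgeR adjusted p = 0.0295), and the WT day change of 1.32 ± 0.40 missed the threshold (0.0536).

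**Figure D2:**
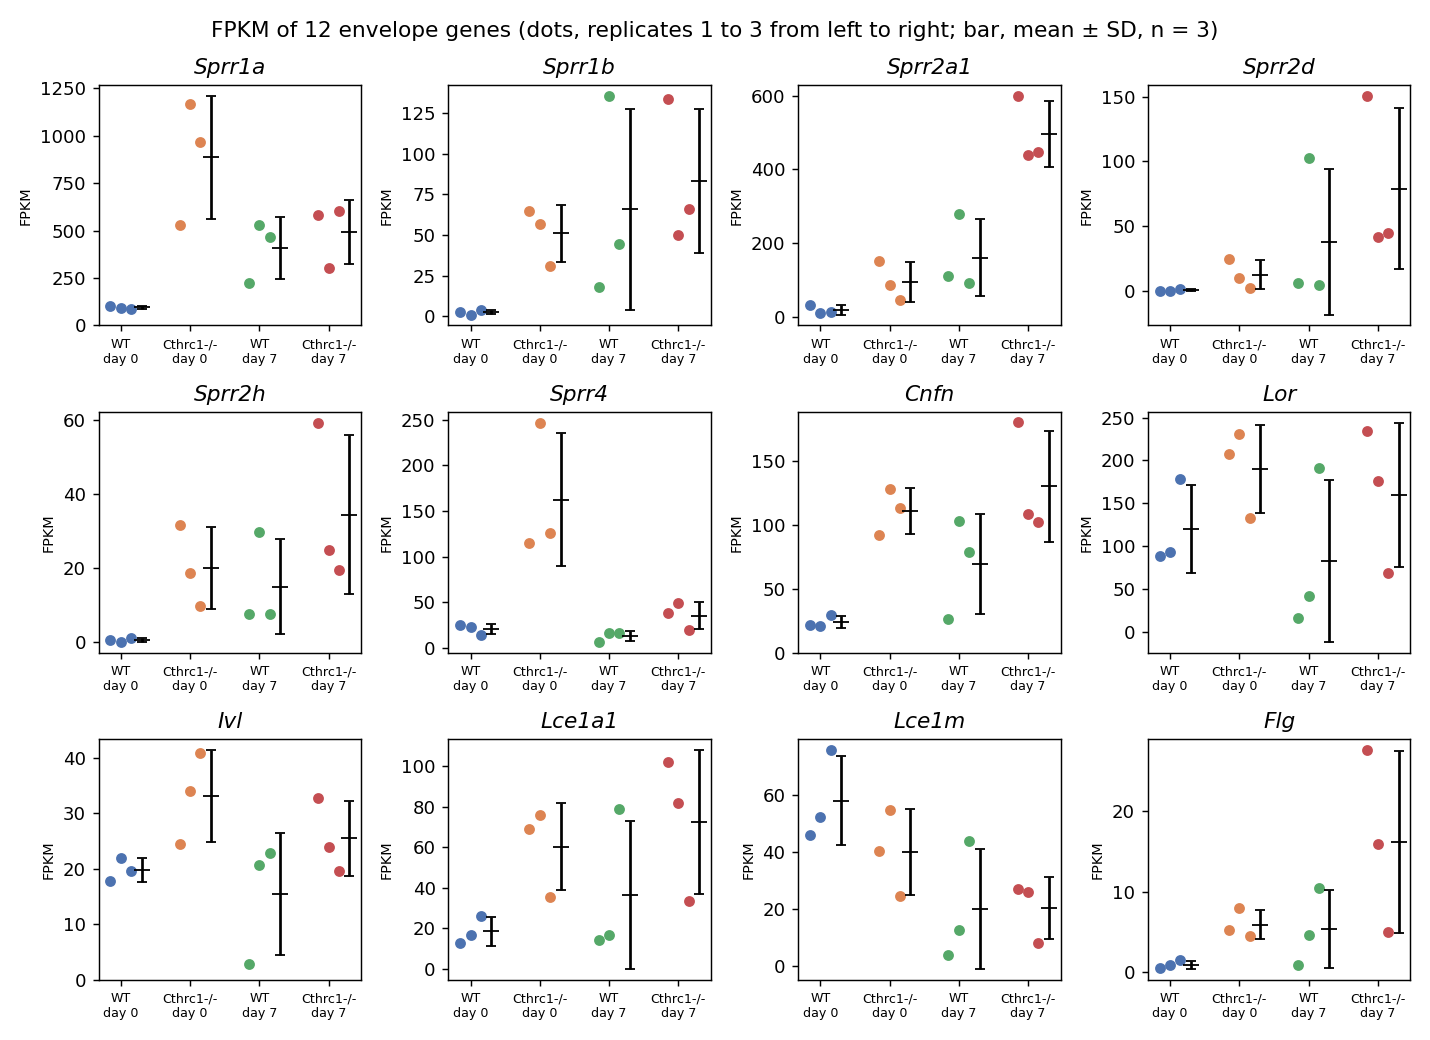
FPKM of 12 genes in each library (dots, replicates 1 to 3 from left to right within a group) with the group mean and SD (n = 3). Sprr1a, Sprr1b, Sprr2h and Cnfn are low and tight in WT on day 0, Sprr4 is high in Cthrc1-/- on day 0 alone, and the Lor and Lce1a1 groups overlap or spread widely on day 7.

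Neither the scaffold gene Ivl nor the bulk gene Lor passed a test in any comparison. Loricrin (Lor, chr3:92080271-92083142) was at 88.3, 92.8 and 179 FPKM in WT on day 0, 208, 231 and 133 in Cthrc1-/- on day 0, 16.7, 41.6 and 191 in WT on day 7 and 234, 176 and 68.7 in Cthrc1-/- on day 7. Involucrin (Ivl) was at 17.8, 22.01 and 19.5 FPKM in WT on day 0, 24.4, 33.99 and 40.9 in Cthrc1-/- on day 0, 2.89, 20.7 and 22.9 in WT on day 7 and 32.8, 23.97 and 19.7 in Cthrc1-/- on day 7. Lor overlapped between the groups in all 4 comparisons, while each Cthrc1-/- day 0 library of Ivl was above each WT day 0 library. On day 0 the genotype differences were 0.57 ± 0.74 for Lor and 0.62 ± 0.53 for Ivl (edgeR adjusted p = 0.639 and 0.46), and between days in WT -0.79 ± 0.74 and -0.60 ± 0.53 (0.493 and 0.47). Lor made up 24.8% of the summed FPKM of the 44 genes in WT on day 0 on average and 9.36% in Cthrc1-/- on day 0. In WT day 7 replicate 1, where the suprabasal list was also lowest, Lor was at 16.7 and Ivl at 2.89 FPKM.

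Of the filaggrin-type genes, which sit at the far end of the locus, Flg was at 0.383, 0.78 and 1.41 FPKM in WT on day 0, 5.24, 7.89 and 4.46 in Cthrc1-/- on day 0, 0.855, 4.57 and 10.5 in WT on day 7 and 27.7, 15.9 and 4.96 in Cthrc1-/- on day 7. Repetin (Rptn) was at 1.31, 1.15 and 1.098 FPKM in WT on day 0, 7.497, 5.85 and 2.05 in Cthrc1-/- on day 0, 1.52, 15.2 and 1.92 in WT on day 7 and 64.8, 13.9 and 4.37 in Cthrc1-/- on day 7. On day 0 each Cthrc1-/- library was above each WT library for both genes, but neither passed (Flg 2.66 ± 0.85, edgeR adjusted p = 0.0844; Rptn 2.04 ± 1.07, 0.235). Rptn reached 64.8 FPKM in Cthrc1-/- day 7 replicate 1 and 15.2 in WT day 7 replicate 2, with every other library at or under 13.9. Flg2 was at 2.99, 6.95 and 1.14 FPKM in WT on day 0, 3.704, 4.91 and 1.501 in Cthrc1-/- on day 0, 0.513, 2.69 and 1.19 in WT on day 7 and 6.88, 5.13 and 0.658 in Cthrc1-/- on day 7. Hornerin (Hrnr) was at 0.663, 0.323 and 1.84 FPKM in WT on day 0, 5.69, 0.33 and 0.866 in Cthrc1-/- on day 0, 1.41, 2.703 and 5.66 in WT on day 7 and 12.4, 0.444 and 1.03 in Cthrc1-/- on day 7. Both overlapped between the groups in every comparison.

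The Lce1 genes, late components of the envelope, had the same highest library in each day 7 group, and 1 of the 14 passed a test. Lce1a1, the second highest of them in WT on day 0, was at 12.6, 16.5 and 26.2 FPKM in WT on day 0, 69.1, 75.9 and 35.6 in Cthrc1-/- on day 0, 14.003, 16.7 and 78.6 in WT on day 7 and 102, 81.9 and 33.2 in Cthrc1-/- on day 7. Lce1b was at 9.94, 12.5 and 19.9 FPKM in WT on day 0, 50.8, 45.7 and 23.4 in Cthrc1-/- on day 0, 10.7, 12.02 and 55.6 in WT on day 7 and 63.1, 47.2 and 21.3 in Cthrc1-/- on day 7. Lce1a2 was at 9.45, 12.96 and 21.6 FPKM in WT on day 0, 47.6, 40.05 and 19.5 in Cthrc1-/- on day 0, 6.097, 13.4 and 52.4 in WT on day 7 and 60.8, 42.9 and 15.8 in Cthrc1-/- on day 7. In each of these, WT day 7 replicate 3 was above every WT day 0 library while replicates 1 and 2 were within or below the WT day 0 range. Lce1c was at 11.5, 14.8 and 25.1 FPKM in WT on day 0, 46.2, 48.3 and 17.5 in Cthrc1-/- on day 0, 10.3, 13.9 and 55.04 in WT on day 7 and 67.7, 50.2 and 18.1 in Cthrc1-/- on day 7. Lce1d was at 4.197, 4.87 and 8.25 FPKM in WT on day 0, 36.9, 37.6 and 12.1 in Cthrc1-/- on day 0, 9.29, 10.5 and 44.1 in WT on day 7 and 61.6, 45.1 and 17.1 in Cthrc1-/- on day 7. Lce1f was at 1.93, 1.99 and 5.86 FPKM in WT on day 0, 32.6, 23.99 and 9.51 in Cthrc1-/- on day 0, 6.03, 5.45 and 37.2 in WT on day 7 and 49.8, 36.4 and 15.01 in Cthrc1-/- on day 7. Cthrc1-/- day 7 replicate 3 was the lowest of its group for all 14 Lce1 genes, and WT day 7 replicate 3 the highest of its group for all 14. Lce1e was at 1.02, 1.03 and 2.63 FPKM in WT on day 0, 15.7, 15.4 and 3.27 in Cthrc1-/- on day 0, 3.64, 2.96 and 18.7 in WT on day 7 and 29.5, 21.4 and 7.27 in Cthrc1-/- on day 7. Lce1i was at 2.28, 3.12 and 3.09 FPKM in WT on day 0, 18.9, 15.4 and 4.48 in Cthrc1-/- on day 0, 3.69, 4.12 and 16.997 in WT on day 7 and 25.9, 21.6 and 5.19 in Cthrc1-/- on day 7. Lce1l was at 3.02, 7.04 and 7.75 FPKM in WT on day 0, 18.6, 16.3 and 6.39 in Cthrc1-/- on day 0, 5.11, 5.805 and 17.4 in WT on day 7 and 26.05, 23.1 and 3.53 in Cthrc1-/- on day 7. Lce1l overlapped between genotypes on day 0, whereas Lce1e and Lce1i did not.

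The Lce1 gene that passed was Lce1g. It was at 0.271, 0.381 and 0.93 FPKM in WT on day 0, 12.2, 6.52 and 3.34 in Cthrc1-/- on day 0, 3.47, 1.83 and 16.7 in WT on day 7 and 26.5, 16.5 and 7.82 in Cthrc1-/- on day 7. Each WT day 0 library was below every other library. It was higher in Cthrc1-/- on day 0 by 3.70 ± 0.93 (edgeR adjusted p = 0.0478) and in WT on day 7 by 3.53 ± 0.92 (0.0337), the latter by 2.20 and without a call when WT day 7 replicate 3 was left out (edgeR adjusted p = 0.0777). Lce1a1, with a day 0 difference of 1.62 ± 0.66 and no overlap, did not pass (edgeR adjusted p = 0.145). The remaining Lce1h, Lce1j and Lce1k had group means of 0.99 to 10.8 FPKM and passed no test.

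Lce1m, which lies apart from the other Lce1 genes beyond the Lce3 group, was at 46.1, 52.4 and 75.8 FPKM in WT on day 0, 40.3, 54.97 and 24.8 in Cthrc1-/- on day 0, 3.99, 12.6 and 43.99 in WT on day 7 and 27.1, 26.2 and 8.08 in Cthrc1-/- on day 7. Its WT day 0 mean was the highest of its 4 group means, and all WT day 7 libraries were below all WT day 0 libraries. The WT day change was -1.79 ± 0.73 and the day 0 genotype difference -0.63 ± 0.71, and neither passed (edgeR adjusted p = 0.124 and 0.586). The WT day 7 order of Lce1m followed that of the suprabasal keratin Krt10, which was at 86.7, 976 and 2417 FPKM in replicates 1 to 3 of that group.

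The Lce3 genes, which lie together inside the Lce1 group, were at most 0.425 FPKM in any WT day 0 library. Lce3c was at 0.227, 0.233 and 0 FPKM in WT on day 0, 5.75, 3.89 and 1.61 in Cthrc1-/- on day 0, 1.37, 1.497 and 2.39 in WT on day 7 and 11.2, 5.37 and 4.59 in Cthrc1-/- on day 7. Lce3d had no count in WT on day 0, and was at 5.52, 2.13 and 1.102 FPKM in Cthrc1-/- on day 0, 1.101, 0.653 and 0.517 in WT on day 7 and 8.07, 3.93 and 1.15 in Cthrc1-/- on day 7. In both genes each WT day 0 library was below every other library. Lce3c was higher in Cthrc1-/- on day 0 by 4.39 ± 0.86 (edgeR adjusted p = 0.0307) and in WT on day 7 by 3.16 ± 0.83 (0.0342). Lce3d was at least 30.4-fold higher in Cthrc1-/- on day 0 (edgeR adjusted p = 0.0235) and at least 8.03-fold higher in WT on day 7 (0.0218), and the day 0 bound was 16.9-fold without Cthrc1-/- day 0 replicate 1, with the call kept. Between 24.1% and 43.0% of the 100-base stretches of Lce3c, Lce3d, Lce3e and Lce3f were shared with another gene's transcript, so counts may be split among them. Lce3f, with 2 counts over the WT day 0 libraries and 116 over those of Cthrc1-/- on day 0, had a ratio of 61.6 with a 95% counting interval of 16.7 to 515, which covers counting error only, and did not pass (edgeR adjusted p = 0.0676). Lce3a, Lce3b and Lce3e reached 8.14, 8.24 and 6.79 FPKM in Cthrc1-/- day 7 replicate 1, and Lce6a was at 1.55 to 16.1 FPKM, with no call for any of the 4.

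On day 0, Cthrc1-/- dermis had higher levels of 11 of the 43 tested envelope genes than WT dermis, and lower levels of 0. They were Sprr1a, Sprr1b, Sprr2e, Sprr2f, Sprr2g, Sprr2h, Sprr4, Cnfn, Lce1g, Lce3c and Lce3d, so 7 of the 15 tested Sprr genes, 3 of 21 Lce genes and 1 of the 7 single genes. Over all 14313 tested genes, 3.51% were called higher in this comparison and 2.26% lower. For 29 of the 43, every Cthrc1-/- library was above every WT library, against 21.5% of all tested genes. The median log2 difference was 2.66, or 2.43 with genes at 0 in WT set to their lower bounds, against -0.0473 over all tested genes. The filter bears on these counts: 19 of the 43 genes had a WT day 0 mean under 1 FPKM and were tested only because another group was higher, and 7 of the 11 calls were among them. Of the 24 with a WT day 0 mean of at least 1 FPKM, 4 were called higher (Sprr1a, Sprr1b, Sprr4 and Cnfn), against 2.53% of all genes with that mean.

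The calls on day 0 depend on each WT library. Without WT day 0 replicate 1, 2 or 3, the calls numbered 1, 0 and 0, and without Cthrc1-/- day 0 replicate 1, 2 or 3 they numbered 9, 3 and 9. At an unadjusted p under 0.05 the count was 29 of 43 in all libraries, against 4068 of all 14313 tested genes. It was 22 to 30 in those 6 fits. The shares of all tested genes called in those fits are not given here, so a loss of calls cannot be set against all genes. The hair follicle list moved with this comparison: 11 of its 12 tested genes were called higher in Cthrc1-/- on day 0, with sums from 251 to 12777 against at most 19.5 in WT. The wound-edge keratinocyte list (Krt6a, Krt6b, Krt16, Krt17, S100a8 and S100a9) moved with it too: every Cthrc1-/- library was above every WT library for all 6 genes, Krt16 and Krt17 were called higher, and the median log2 difference was 2.42. Its sums were 1057, 1031 and 961 FPKM in WT and 2317, 3741 and 2503 in Cthrc1-/-. The fibroblast list was lower without overlap for 6 of 6 genes, 1 of them called, against 2.26% of all tested genes called lower. The share of all tested genes that were lower without overlap on day 0 is not given here. Within Cthrc1-/- on day 0, replicate 1 had the lowest hair follicle sum and the highest level of 30 of the 43 envelope genes, and replicate 3 had the highest hair follicle sum and the lowest level of 35. Replicate 1 was instead the lowest of its group for 5 genes, the called Sprr1a, Sprr4 and Cnfn together with Ivl and Sprr2b. In replicates 1 to 3 of this group the basal keratinocyte sums were 8929, 7766 and 4090 FPKM and the suprabasal sums 2435, 2048 and 784.

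Relative to the basal keratin Krt14, the summed Sprr level was 0.062 to 0.075 in WT on day 0 and 0.359 to 0.686 in Cthrc1-/- on day 0, in FPKM per FPKM. The corresponding ratios were 0.041 to 0.097 and 0.093 to 0.136 for the summed Lce1 level. On this scale the Sprr ratios of the genotypes did not overlap and the Lce1 ratios did. Relative to the suprabasal keratin Krt10, neither overlapped: the Sprr ratios were 0.078 to 0.136 in WT and 1.14 to 6.95 in Cthrc1-/-, and the Lce1 ratios 0.073 to 0.121 and 0.434 to 0.943, so the contrast between Sprr and Lce1 depends on the keratin chosen. Krt14 itself was at 2568, 2013 and 2081 FPKM in WT on day 0 and 3064, 3297 and 1775 in Cthrc1-/- on day 0. Krt10 was lower in every Cthrc1-/- day 0 library than in every WT day 0 library. The Lce1 sums themselves overlapped on day 0, at 104, 132 and 202 FPKM in WT and 417, 399 and 165 in Cthrc1-/-. The part of epidermal, wound-edge, follicle or fibroblast content in these differences was not tested.

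**Figure D3:**
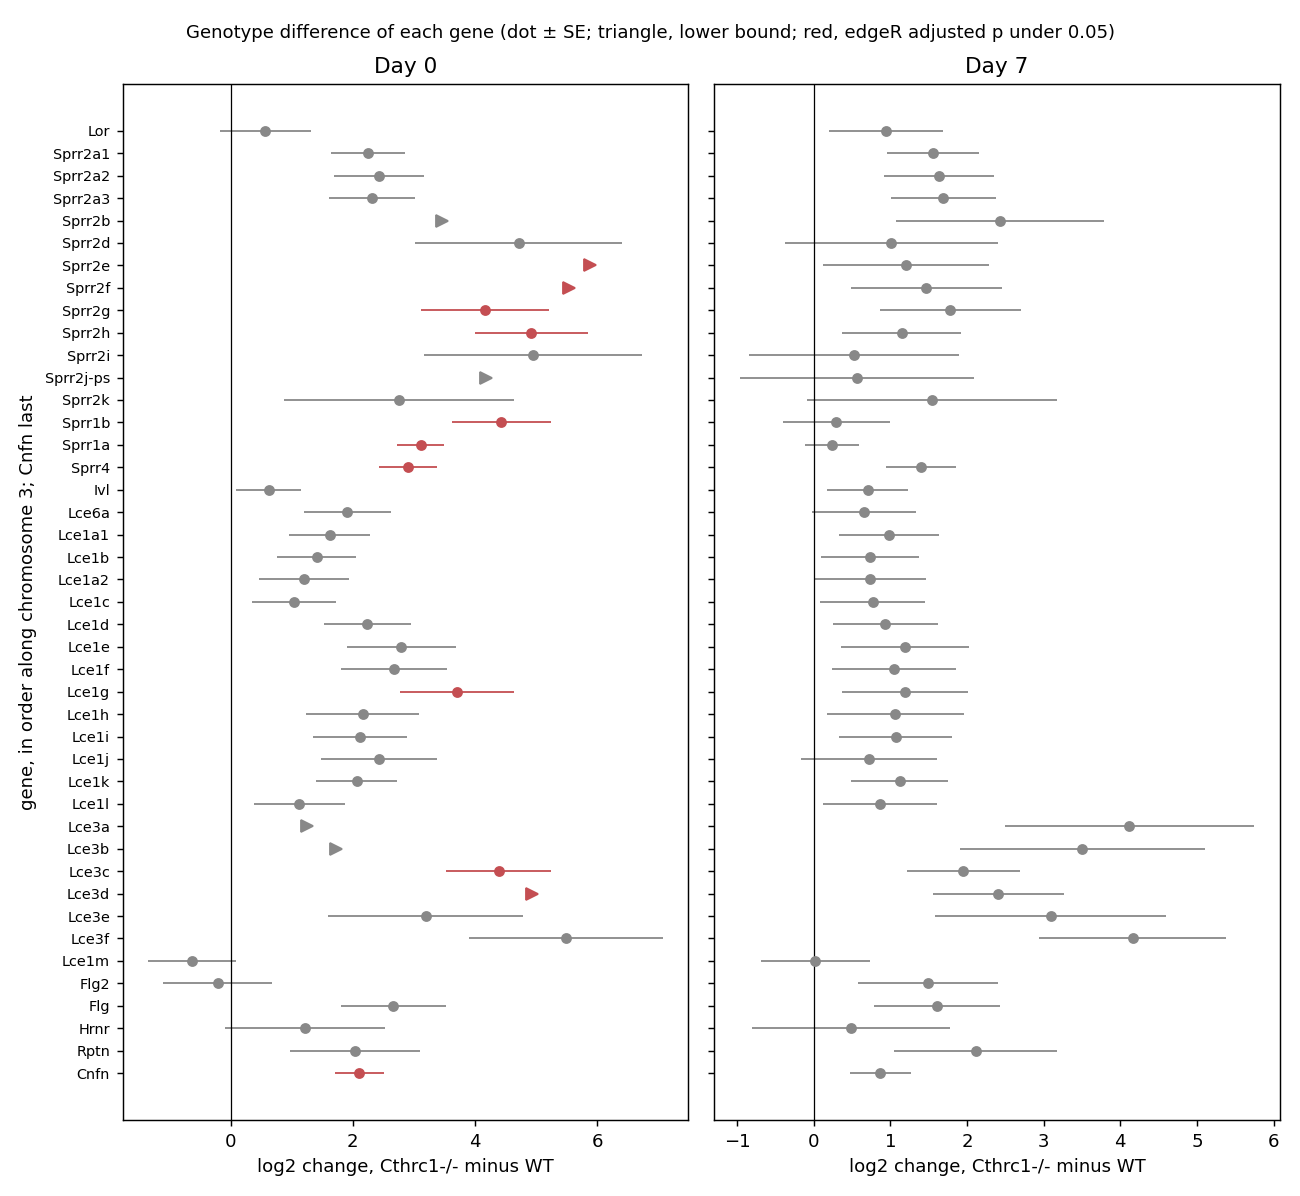
Log2 difference of Cthrc1-/- minus WT for each of the 43 tested genes on day 0 (left) and day 7 (right), in order along chromosome 3 with Cnfn last; dots are edgeR estimates with SE, triangles are lower bounds for genes at 0 in WT, and red marks an edgeR adjusted p under 0.05. On day 0, 11 genes are red and Lor, Ivl, Lce1m and Flg2 lie nearest 0; on day 7 all estimates are above 0 and none is red.

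On day 7, none of the 43 genes passed the test between genotypes. The estimates were above 0 for all 43, with a median log2 difference of 1.12 against -0.00546 over all tested genes. An unadjusted p under 0.05 was found for 8 of the 43, against 782 of all 14313 tested genes. Only 0.021% of all tested genes were called in this comparison. For 9 of the 43 every Cthrc1-/- library was above every WT library, against 6.46% of all genes, among them Sprr2a1 (1.55 ± 0.60), Sprr4 (1.40 ± 0.46) and Lce3f (4.16 ± 1.22), each with an edgeR adjusted p of 0.907. The filter bears on these counts too. Lce3a, Lce3b, Lce3f and Sprr2k, for example, averaged under 1 FPKM in every other group and were tested only because Cthrc1-/- on day 7 was higher. Lce3a and Lce3f are among both the 8 and the 9. All 3 Sprr2a copies, best read as 1 signal, are among the 9. DESeq2 called 0 as well. Sprr1a, with the day 0 difference above, differed on day 7 by 0.23 ± 0.35, and Cnfn by 0.87 ± 0.39 (edgeR adjusted p = 0.996 and 0.908). WT day 7 replicate 1 held the lowest FPKM of its group for 21 of the 43 genes and Cthrc1-/- day 7 replicate 1 the highest of its own for 41. Since 43 genes were measured in the same 6 libraries, their shared sign is not 43 separate observations.

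Between day 0 and day 7 in WT, 14 of the 43 genes rose and 0 fell. The risers were 11 of the 15 tested Sprr genes (Sprr1a, Sprr1b, Sprr2a1, Sprr2a2, Sprr2a3, Sprr2b, Sprr2d, Sprr2e, Sprr2f, Sprr2h and Sprr2i), 3 of 21 Lce genes (Lce1g, Lce3c and Lce3d) and 0 of the 7 single genes. Over all tested genes, 6.04% were called higher and 7.1% lower. WT day 7 was above WT day 0 in every library for 23 of the 43, against 29.8% of all genes, and below it for 1 (Lce1m), against 14.1%. The median log2 change was 2.17, or 2.06 with bounds, against -0.00185 over all genes. Scaling by total count in place of TMM moved the median of all genes to 0.196 in WT and 0.158 in Cthrc1-/-, and no call of an envelope gene changed its direction. Again 19 genes entered through a group other than WT on day 0, with 9 of the 14 calls among them. Of the 24 others, 5 were called higher (Sprr1a, Sprr1b, Sprr2a1, Sprr2a2 and Sprr2a3), against 4.28% of all genes with a WT day 0 mean of at least 1 FPKM. The 3 Sprr2a copies, here and among the 11 Sprr risers, are best read as 1 signal because of their shared sequence.

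Without WT day 0 replicate 1, 2 or 3 the calls numbered 5, 1 and 2, and without WT day 7 replicate 1, 2 or 3 they numbered 15, 6 and 15. The shares of all tested genes called in these fits are likewise not given. Without WT day 7 replicate 2 the log2 change was 3.58 for Sprr1b and 3.43 for Sprr2h, both still called, and 3.47 for Sprr2d, 3.01 for Sprr2i, 2.28 for Sprr2a1 and 2.33 for Sprr2a2, which were not. The WT day 7 libraries split by gene family. Replicate 2 was the highest for all 15 tested Sprr genes, and replicate 3 for all 14 Lce1 genes. The summed Sprr level was 479.9, 1400.2 and 701 FPKM in replicates 1 to 3 and the summed Lce1 level 84.8, 106 and 466. The summed wound-edge list, of which 4 of 6 genes were called higher on day 7 in WT, did not follow either order, at 5527, 3842 and 1428 FPKM. Of its members, S100a8 and S100a9 were highest in replicate 1, at 1210.2 and 3409 FPKM. Krt6a, Krt6b and Krt16 were highest in replicate 2, at 735, 799.6 and 716 FPKM, and Krt17 was at 434, 858 and 861. The suprabasal list summed to 513, 2425 and 4868, with replicate 3 highest. Their part in the split was not tested.

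**Figure D4:**
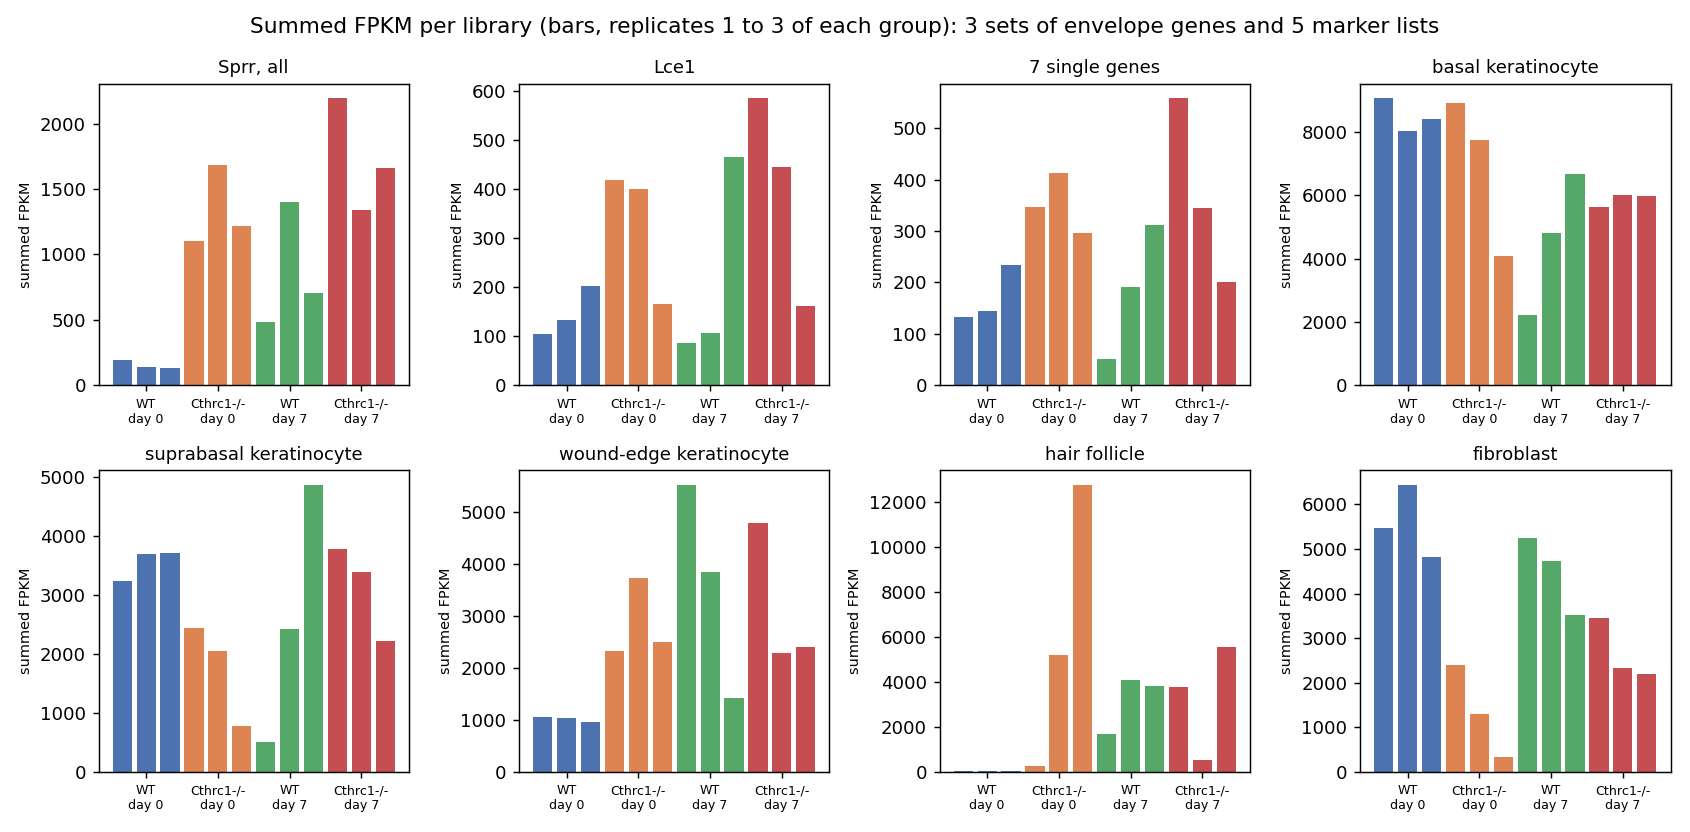
Summed FPKM in each library (bars, replicates 1 to 3 of each group, axes from 0) of all Sprr genes, the Lce1 genes, the 7 single genes and 5 lists of cell type markers. In WT on day 7 the Sprr sum peaks in replicate 2 and the Lce1 and suprabasal sums in replicate 3, and the hair follicle sum is near 0 only in WT on day 0.

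Between day 0 and day 7 in Cthrc1-/-, Sprr4 fell and none of the 43 genes rose. Among all tested genes, 0.859% were called higher and 0.601% lower. Cthrc1-/- day 7 was above day 0 in every library for 7 genes, against 21.5% of all genes, and below it for Sprr4, against 4.99%. Here too the filter bears on the count of genes above day 0. Among the 7, Sprr2b, Lce3a and Lce3f passed it only because Cthrc1-/- on day 7, the group found higher, was included in the mean. The median log2 change was 0.49, against -0.0128 over all genes. Sprr1b changed by 0.53 ± 0.70 and Cnfn by 0.08 ± 0.39, neither passing (edgeR adjusted p = 0.737 and 0.942).

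The difference between the day changes of the genotypes, tested as the interaction, passed for 0 of the 43 genes with edgeR, against 0.014% of all tested genes. An unadjusted p under 0.05 was found for 10 of the 43, against 2164 of all 14313 tested genes. The lowest p belonged to Sprr1a, for which the day change in Cthrc1-/- minus that in WT was -2.88 ± 0.51 (edgeR adjusted p = 0.137), followed by Sprr1b at -4.14 ± 1.03 (0.193). Sprr2h was at -3.77 ± 1.15, Sprr4 at -1.51 ± 0.63 and Cnfn at -1.24 ± 0.55 (edgeR adjusted p = 0.217, 0.306 and 0.328), whereas Sprr2a1 was at -0.70 ± 0.83 (0.699). DESeq2 called 6 genes lower in the interaction (Sprr1a, Sprr1b, Sprr2e, Sprr2f, Sprr2h and Lce3d), and edgeR without Cthrc1-/- day 0 replicate 1 called Sprr1a. The share of all tested genes that DESeq2 called is not given here, so its 6 calls cannot be set against all genes. Sprr2e, Sprr2f and Lce3d had no count in WT on day 0, so their estimates rest on that floor. The plot of day changes in both genotypes shows most Sprr genes to the right of the line of equal change, and Sprr1a with opposite signs.

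**Figure D5:**
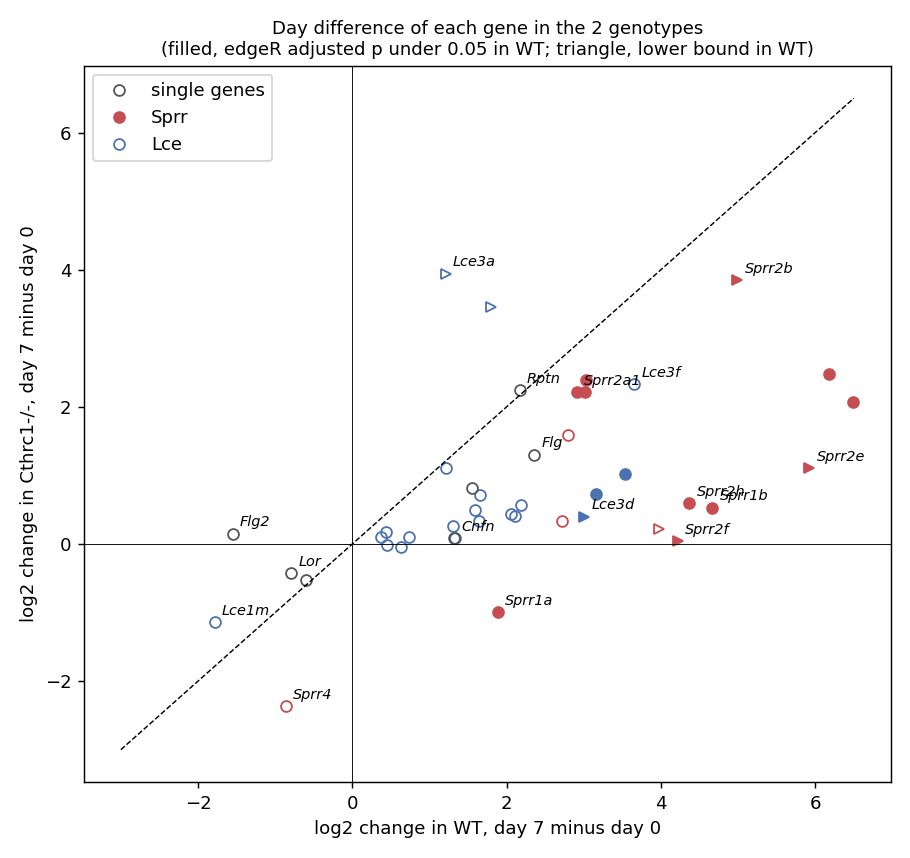
Log2 change from day 0 to day 7 in WT (x axis) and in Cthrc1-/- (y axis) of the 43 tested genes, with the dashed line of equal change; filled symbols had an edgeR adjusted p under 0.05 in WT, and triangles are lower bounds in WT. Sprr1a lies at 1.88 and -0.99, Sprr4 at -0.86 and -2.37, and the interaction passed for none of the genes.

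The envelope genes varied more between replicates than most genes did. The coefficient of variation among the members with a group mean of at least 1 FPKM had a median of 42.0% in WT on day 0, 55.1% in Cthrc1-/- on day 0, 92.8% in WT on day 7 and 58.0% in Cthrc1-/- on day 7. Over all tested genes with such a mean the medians were 9.14%, 22.3%, 21.1% and 15.0%. Sprr1a was the steadiest envelope gene of WT on day 0, at 94.99 ± 6.498 FPKM (mean and SD, n = 3), and Sprr2i was widely spread in WT on day 7, at 9.73 ± 15.4.

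Among other genes that make or modify the envelope, calls on day 0 were all higher in Cthrc1-/-, and those between days in WT went in both directions. Of 13 tested other envelope precursors and cross-linking enzymes, 3 were higher in Cthrc1-/- on day 0 and 0 lower: Crct1 (1.39), cornulin (Crnn, 7.02) and Tgm1, the keratinocyte transglutaminase (1.66; edgeR adjusted p = 0.0475, 0.0319 and 0.0301). Tgm1 was at 7.48, 8.17 and 8.52 FPKM in WT on day 0 and 14.6, 28.9 and 40.3 in Cthrc1-/- on day 0. Crnn was at 0.104, 0 and 0.178 FPKM in WT on day 0 and 0.693, 11.8 and 27.7 in Cthrc1-/- on day 0. Its estimates here and between days in WT thus rest on a level near 0 in WT on day 0. Between days in WT, Crnn, Tgm1 and the protease inhibitor gene Csta1 rose (6.06, 1.40 and 2.31), and suprabasin (Sbsn), cystatin M/E (Cst6) and transglutaminase 5 (Tgm5) fell (-1.34, -1.58 and -2.90; edgeR adjusted p = 0.0195 to 0.0411 for the 6). Among 10 envelope proteases and inhibitors, the kallikrein Klk7 (1.94) and the membrane protease Prss8 (1.31) were higher in Cthrc1-/- on day 0, and between days in WT Serpinb3a rose (4.67) and the kallikrein inhibitor Spink5 fell (-3.19). Of 10 corneodesmosome and junction genes 1 passed on day 0 (Cldn4, 1.45), and of 12 barrier lipid genes 0 did, while between days in WT 0 of the 10 passed and 1 of the 12 (Ugcg, 1.20). Of 15 regulators of keratinocyte differentiation, Prdm1 was higher in Cthrc1-/- on day 0 (1.17), and Klf4 and Trp63 fell between days in WT (-2.30 and -1.02). Median log2 differences on day 0 were 0.51, 1.43, -0.01, 0.29 and 0.34 for these 5 lists, against 2.66 for the envelope genes and -0.0473 over all tested genes. Of the 13 other precursors and enzymes, 7 had day 0 estimates above 0 and 6 below. The shares of all tested genes called were 3.51% higher on day 0, and 6.04% higher and 7.1% lower between days in WT. A single call in lists this short is not read as a result about the list. None of the genes of these 5 lists passed between genotypes on day 7, between days in Cthrc1-/- or in the interaction.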

How the data were processed

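Poly(A) RNA of 12 dermis samples was sequenced as paired-end, dUTP-stranded libraries with molecular identifiers, per the labels' protocols. The authors deposited 1 table with a whole-number count and an FPKM per gene and sample. The submitters' processing notes name cutadapt 1.9, HISAT2 2.0.4, UMI-tools, StringTie 1.3.4d, DESeq2, edgeR and GRCm38, without their roles, so whether the deposited counts were collapsed on the identifiers is not given in the sources used here. Every deposited FPKM at a count of 0 is 0.0001, taken here as 0. Values at multiples of 4 are overrepresented among the deposited counts, so division by 4 was an alternative.

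Symbols and positions came from GENCODE M21 (GRCm38) by gene ID (55141 of 55401 IDs). Sprr2c-ps, a processed pseudogene, was left out, and Sprr2g and Sprr2j-ps were kept because the table types them as protein-coding. Counts were tested by the two-sided quasi-likelihood test of edgeR 4.0.16 (TMM; R 4.3.3) in 1 fit of all 12 samples with a mean per group. The 14313 genes averaging 1 FPKM or more entered, p-values were adjusted over them by Benjamini-Hochberg, and calls needed an adjusted p below 0.05. The SE of a log2 change is its size over the square root of F. Alternatives were total-count scaling, DESeq2 1.42.0, limma 3.58.1 on log2(FPKM + 1) and log2(FPKM + 0.1), other filters, a replicate block, fits of the compared groups alone, and each library left out. The fits were tested on simulated data.

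A floor of 3 counts in a library is 0.0390 to 0.0621 CPM (counts scaled to library size), which covers counting error only. The members and gene lists were chosen with earlier results of these data known. Values by library are given for the 7 single genes, for Sprr and Lce genes averaging 10 FPKM or more, and for every called gene, and other genes are given by ranges. Promoter sequences are from RefSeq (GRCm38.p6).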

Additional observations from a re-analysis of the deposited data

How the results depend on the processing

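No called envelope gene changed direction under any alternative. Against the 11 calls between genotypes on day 0, DESeq2 gave 27, limma on log2(FPKM + 1) gave 7 and a fit of the compared groups alone gave 2. Leaving out 1 library gave 0 to 9, and the 9 of 11 without Cthrc1-/- day 0 replicate 1 were all among the 11. A setting without Cthrc1-/- day 0 replicates 2 and 3 was chosen after seeing the data because of their hair follicle sums. It left 1 library in that group, too few to judge calls. Against the 14 calls between days in WT, DESeq2 gave 22, limma on log2(FPKM + 1) 7, the compared groups alone 5, and leaving out 1 library 1 to 15. Against 1 call between days in Cthrc1-/-, total-count scaling gave 2, DESeq2 4, limma 5 (FPKM + 1) and 3 (FPKM + 0.1), the compared groups alone 0, and leaving out 1 library 0 to 1. In the interaction, DESeq2 gave 6 and leaving out 1 library 0 to 1. Between genotypes on day 7 every alternative gave 0. The shares of all tested genes called under each alternative are not given here, so these counts cannot be set against all genes. The cause of the differences between settings was not tested. Among the estimates named, 3 changed sign, none of them called: Sprr1a between genotypes on day 7 (-0.032 without WT day 7 replicate 1, and up to 0.49 without another library), Lce1a1 between days in WT (-0.40 without WT day 7 replicate 3, up to 1.19), and Cnfn between days in Cthrc1-/- (-0.01 without Cthrc1-/- day 0 replicate 1 and -0.23 without Cthrc1-/- day 7 replicate 1, up to 0.24).

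With the replicate number as a block, the calls numbered 11 (9 of them in common), 0, 10 (all in common), 1 and 0 in the 5 comparisons. Same-numbered samples of the compared groups correlated at -0.0316 to 0.0540 (WT and Cthrc1-/-, day 0), 0.0232 to 0.0869 (days in WT), -0.124 to 0.426 (days in Cthrc1-/-) and -0.232 to 0.139 (genotypes on day 7) in their deviations from the group means. In Cthrc1-/- on day 0 with WT on day 7, which meet in the interaction alone, they correlated at 0.124 to 0.222, against at most 0.114 for differently numbered samples. Between days in WT, every same-numbered correlation was likewise above those of differently numbered samples, which reached at most 0.0157. In the other pairs of groups this was not so. The labels tie no sample to an animal, so the numbers were not taken to pair the samples, and whether they do is not settled here. Genes at 0 counts in WT on day 0 have lower bounds in place of fold changes.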
